A study of Mus musculus with 8 samples.

Results

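The Hox, Meis and Pbx factors described here are 9 genes, chosen by symbol from the 23284 genes of a count table and all found in it. They are 5 genes of the Hoxa cluster (Hoxa3, Hoxa5, Hoxa7, Hoxa9 and Hoxa10), 2 of the Hoxb cluster (Hoxb4 and Hoxb5), Meis1 and Pbx3. RNA was sequenced from LSK cells of mouse bone marrow, which lack lineage markers and carry Sca-1 and c-Kit, the fraction that holds haematopoietic stem and early progenitor cells. All libraries came from Hdc-GFP mice on a C57BL/6 background, a reporter strain in which green fluorescent protein marks activity of Hdc, the histidine decarboxylase gene, whose product makes histamine. Hdc-GFPhi cells (n = 4 libraries) were compared with Hdc-GFPlo cells (n = 4 libraries), each library prepared from 2000 sorted cells, and GFP-negative or non-transgenic cells are not analysed here. Sources used here give neither the age of the mice nor the number pooled per library.

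Hox genes encode transcription factors with a homeodomain, and they lie in clusters whose gene order follows the body axis. In blood formation, genes of the Hoxa cluster, and Hoxa9 above all, are active in stem and progenitor cells and are shut down as cells mature. Meis and Pbx proteins belong to the TALE class of homeodomain proteins, which bind DNA together with Hox proteins and sharpen the choice of target sites, and Hoxa9, Meis1 and Pbx3 act together in acute myeloid leukaemia.

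The homeobox, the coding stretch for the homeodomain, is printed for the TALE members to show what sets their class apart, from GENCODE M21 transcripts on GRCm38, a later build than the mm9 build of the counts. Meis1 (chr11:18885615-18941733, minus strand) and Pbx3 (chr2:34178295-34213256, minus strand) have a homeobox of 189 bases, split by introns within the coordinates given, and capitals mark the proline, tyrosine and proline codons of the loop extension that gives the TALE class its name.
Meis1: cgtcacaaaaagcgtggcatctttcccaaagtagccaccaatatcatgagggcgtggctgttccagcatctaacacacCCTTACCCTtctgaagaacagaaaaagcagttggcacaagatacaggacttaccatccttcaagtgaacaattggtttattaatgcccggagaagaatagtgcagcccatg
Pbx3: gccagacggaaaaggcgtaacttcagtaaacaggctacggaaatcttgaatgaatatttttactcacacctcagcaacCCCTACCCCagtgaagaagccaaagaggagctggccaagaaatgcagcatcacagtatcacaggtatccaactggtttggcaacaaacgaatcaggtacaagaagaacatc
Meis1 and Pbx3 share 92 of 189 bases and 27 of 63 residues. The longest exact run of coding bases shared with another Hox or TALE gene was 23 for Meis1 and 21 for Pbx3, while Hoxb4 shared 52 with Hoxa6 and Hoxa7 shared 47 with Hoxb4. Neither read length nor the treatment of multi-mapping reads is stated in those sources, and an effect of shared runs on the counts was not tested.

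Library totals were 21041170 to 22470121 counts in Hdc-GFPhi and 16726179 to 23051277 in Hdc-GFPlo. Kit, Ly6a (the Sca-1 gene), Cd34 and Ptprc were expressed in every library, with summed levels of 3027 to 3355 CPM (read counts scaled to library size) in Hdc-GFPhi and 2685 to 3463 CPM in Hdc-GFPlo. Kit was at 748 CPM in Hdc-GFPlo replicate 3, against 1223 to 1470 CPM in the other Hdc-GFPlo libraries. Cd34 was at 1141 to 1241 CPM in Hdc-GFPhi and 1250 to 1414 CPM in Hdc-GFPlo. Such a separation, lower in Hdc-GFPhi, was seen for 3.54% of all tested genes. Hdc itself was at 10.1 to 14.5 CPM in Hdc-GFPhi and 10.9 to 13.4 CPM in Hdc-GFPlo, with overlap. Marker sums of some lineages did not overlap between the fractions. The sum of 13 stem cell genes was 2057 to 2429 CPM in Hdc-GFPhi and 1339 to 1611 CPM in Hdc-GFPlo, and that of the 12 lymphoid and B lineage genes found in the table was 1198 to 1578 CPM in Hdc-GFPhi and 2603 to 3660 CPM in Hdc-GFPlo. Granulocyte and monocyte genes (12) summed to 1991 to 2536 CPM in Hdc-GFPhi and 2495 to 3117 CPM in Hdc-GFPlo, and erythroid and megakaryocyte genes (10) to 113 to 154 CPM in Hdc-GFPhi and 90.9 to 125 CPM in Hdc-GFPlo. The 8 T and NK cell genes summed to 0.624 to 1.77 CPM in Hdc-GFPhi and 1.66 to 6.15 CPM in Hdc-GFPlo. Cd8a was at 0 in every library, while Klrd1 had 0 to 10 counts per library in Hdc-GFPhi and 18 to 41 in Hdc-GFPlo. Hba-a1 was also at 0, for counted reads only, since the treatment of multi-mapping reads is not stated. The granulocyte gene Ngp was at 393 to 685 CPM in Hdc-GFPhi and 507 to 892 CPM in Hdc-GFPlo. S100a8 was at 135 to 268.5 CPM in Hdc-GFPhi and 215 to 407 CPM in Hdc-GFPlo. Of the 10 stromal genes only Cxcl12, Pdgfrb and Col1a2 had enough counts to test, Pdgfrb made up most of the sum, Lepr was at 0 to 3 counts per library, and the stromal sums overlapped (56.9 to 92.7 CPM in Hdc-GFPhi, 57.9 to 120 CPM in Hdc-GFPlo), as did those of 6 endothelial genes (252 to 340 CPM in Hdc-GFPhi, 213 to 299.9 CPM in Hdc-GFPlo). The part of cell make-up in the member values was not tested, and in sorted bulk RNA a change in the share of cells that express a gene and a change in RNA per cell cannot be told apart. In a principal component analysis of all tested genes, Hdc-GFPhi replicate 4 stood at the high end of the first component. On the second component, Hdc-GFPlo replicate 3 stood at the low end (-40.52) and Hdc-GFPhi replicate 2 at the high end (39.15). Member values without both Hdc-GFPhi replicate 4 and Hdc-GFPlo replicate 3 are given in the closing section.

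None of the 9 members passed the test between the fractions. All 9 had enough counts to be tested, and with edgeR 0 were called higher and 0 lower in Hdc-GFPhi at an adjusted p of 0.05, where 0.947% of the 13300 tested genes were called, 0.241% higher and 0.707% lower. DESeq2 and limma voom also called 0 members. At an unadjusted p under 0.05 there was 1 member, Hoxa10, against 10.9% of all tested genes. The median log2 fold change of the members was 0.06, from -0.48 (Hoxb4) to 0.57 (Hoxb5), with 5 above 0 and 4 below, beside a median of -0.0005 over all tested genes. The summed level of the 9 members was 718.6 to 766 CPM in Hdc-GFPhi and 661.8 to 689.8 CPM in Hdc-GFPlo, most of it Meis1.

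**Figure D1:**
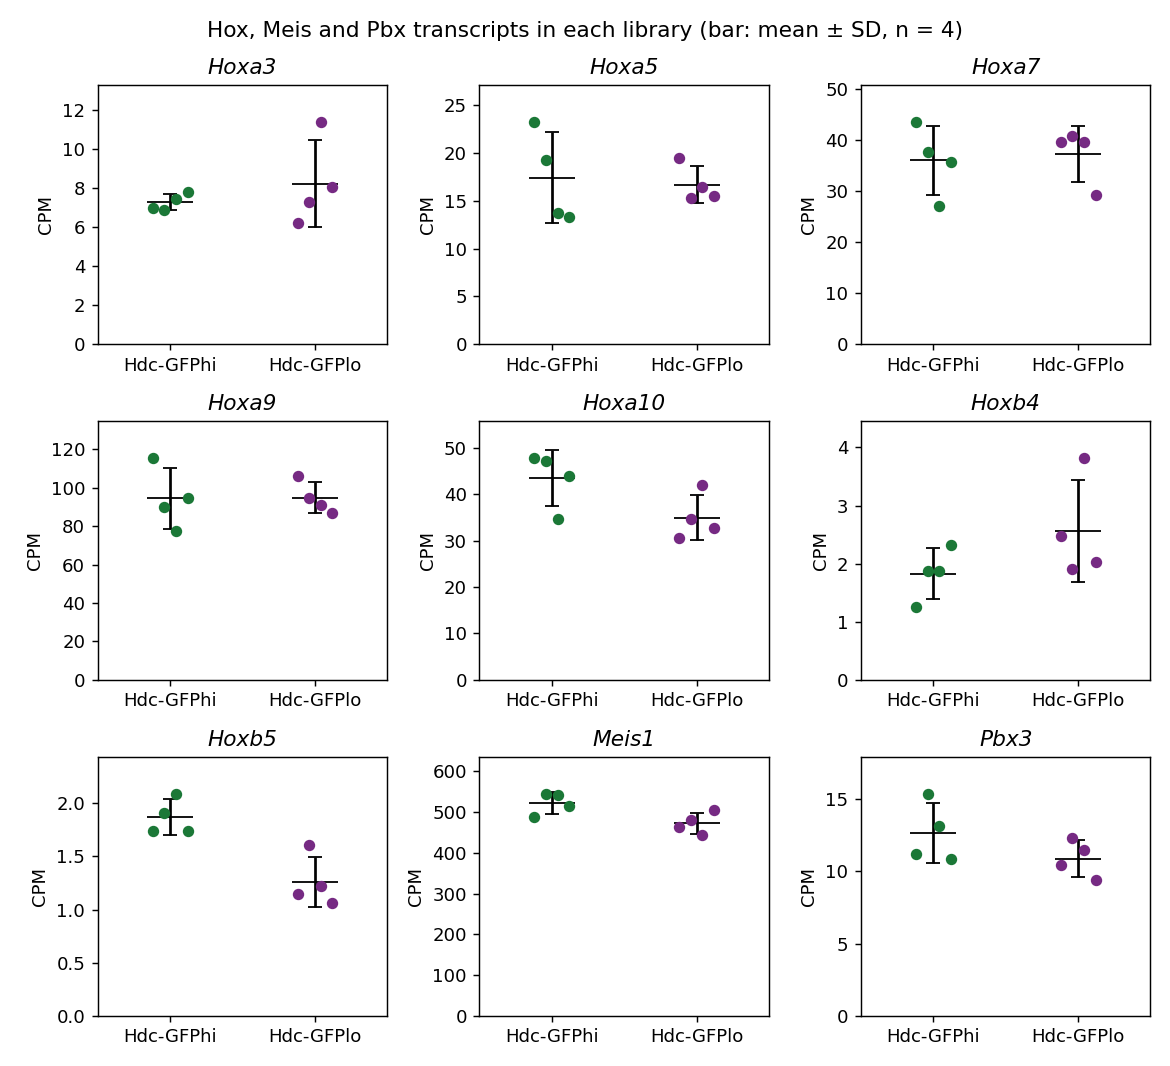
CPM of each member (y axis, from 0) in every library, Hdc-GFPhi left (green) and Hdc-GFPlo right (purple), with points in replicate order and bars at the mean ± SD of 4 libraries. Hoxb5 is the only member whose fractions do not overlap, at 1.74 to 2.09 CPM in Hdc-GFPhi and 1.06 to 1.60 CPM in Hdc-GFPlo.

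Hoxa9, the Hox gene most tied to stem cell renewal and leukaemia, was at the same mean level in the fractions. It was at 116, 90.2, 77.3 and 94.9 CPM in Hdc-GFPhi and at 106, 94.7, 91.2 and 87.1 CPM in Hdc-GFPlo, from 1594 to 2593 counts per library. The lowest and the highest library were both Hdc-GFPhi, so the Hdc-GFPlo values lay inside the Hdc-GFPhi range. The means were 94.5 ± 15.9 CPM in Hdc-GFPhi against 94.7 ± 8.15 CPM in Hdc-GFPlo (± SD over 4 libraries each). The fit gave a log2 fold change of -0.00 ± 0.13 (SE; 95% interval -0.28 to 0.27, adjusted p = 0.996). On the linear scale this interval runs from 0.822-fold to 1.21-fold, which makes Hoxa9 the cluster gene whose difference was bounded most tightly.

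Hoxa10, which lies next to Hoxa9 and whose forced expression expands myeloid progenitors, had the largest Hoxa cluster difference among the members. It was at 47.8, 47.1, 34.7 and 43.9 CPM in Hdc-GFPhi and at 30.5, 34.7, 41.9 and 32.7 CPM in Hdc-GFPlo. In Hdc-GFPhi, 3 of 4 libraries lay above every Hdc-GFPlo library, and replicate 3 lay among them. The means of 43.4 ± 6.04 CPM in Hdc-GFPhi against 34.9 ± 4.92 CPM in Hdc-GFPlo gave a log2 fold change of 0.31 ± 0.14, with a 95% interval from just above 0 (0.0030) to 0.62. Its unadjusted p was 0.0481 and its adjusted p 0.452, so the difference did not pass the test over all genes. It kept its direction in the fits that left out 1 library (0.25 to 0.43).

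Hoxa7, a cluster gene kept active by the methyltransferase Mll1 (Kmt2a), was at 43.5, 37.6, 27.0 and 35.7 CPM in Hdc-GFPhi and at 39.5, 40.6, 39.5 and 29.1 CPM in Hdc-GFPlo. Hdc-GFPlo replicate 4 stood apart from the other Hdc-GFPlo libraries, and the fractions overlapped throughout. The log2 fold change was -0.05 (95% interval -0.40 to 0.30, adjusted p = 0.953). Hoxa5, which in human progenitors favours myeloid over erythroid fate, was at 23.3, 19.3, 13.8 and 13.3 CPM in Hdc-GFPhi and at 19.5, 15.3, 16.4 and 15.5 CPM in Hdc-GFPlo. In Hdc-GFPhi, replicates 1 and 2 were high and replicates 3 and 4 low, with all but 1 of the Hdc-GFPlo values between them. The Hoxa5 means were 17.4 ± 4.76 CPM in Hdc-GFPhi against 16.7 ± 1.93 CPM in Hdc-GFPlo (log2 fold change 0.06, 95% interval -0.36 to 0.49, adjusted p = 0.951). Without Hdc-GFPhi replicate 1 the Hoxa5 value was -0.11.

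Hoxa3, an anterior gene of the cluster known for its part in thymus and pharyngeal arch formation, was even in Hdc-GFPhi and spread in Hdc-GFPlo. It was at 7.0, 6.91, 7.43 and 7.80 CPM in Hdc-GFPhi and at 6.19, 7.31, 11.4 and 8.06 CPM in Hdc-GFPlo. The spread was 5.68% of the mean in Hdc-GFPhi, where counting alone gives 7.86%, and 27.3% in Hdc-GFPlo, where counting alone gives 7.98%. The log2 fold change was -0.18 (95% interval -0.64 to 0.29, adjusted p = 0.853), and it was 0.04 without Hdc-GFPlo replicate 3. In GENCODE M21, 25.5% of the Hoxa3 transcript and 28.8% of the Hoxa7 transcript overlap exons of genes on the opposite strand, and a further 10.1% of Hoxa3 overlaps exons on its own strand. Reads of such partners cannot be told apart from those of Hoxa3 and Hoxa7 in these counts, for which no strand setting was stated.

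Hoxb5, whose expression marks long-term stem cells in the mouse, was low but separated the fractions. It was at 1.74, 1.91, 2.09 and 1.74 CPM in Hdc-GFPhi and at 1.15, 1.60, 1.22 and 1.06 CPM in Hdc-GFPlo. All 4 Hdc-GFPhi libraries lay above all 4 Hdc-GFPlo libraries, a separation that 3.38% of all tested genes showed in that direction and 6.92% in either, and no member was separated the other way. These levels rest on 39, 41, 47 and 39 counts in Hdc-GFPhi and on 26, 27, 22 and 21 counts in Hdc-GFPlo. The means were 1.87 ± 0.169 CPM in Hdc-GFPhi against 1.26 ± 0.238 CPM in Hdc-GFPlo (± SD over 4 libraries each), a fold of 1.49. The edgeR fit, which shares its estimate of the spread between genes, gave a log2 fold change of 0.57 ± 0.34 with a 95% interval of -0.16 to 1.30 and an adjusted p of 0.609, so the difference did not pass the test. The seen spread was 9.04% of the mean in Hdc-GFPhi and 18.9% in Hdc-GFPlo, where counting alone gives 15.5% in Hdc-GFPhi and 20.4% in Hdc-GFPlo. Its log2 fold change was between 0.50 and 0.71 when 1 library was left out. In GENCODE M21, 5.28% of its transcript overlaps an antisense gene, Hoxb5os.

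Hoxb4, whose forced expression expands stem cells, pointed the other way. It was at 1.25, 1.87, 1.87 and 2.32 CPM in Hdc-GFPhi (28 to 52 counts) and at 2.48, 1.90, 3.82 and 2.03 CPM in Hdc-GFPlo (32 to 69 counts). In Hdc-GFPhi, 3 of 4 libraries lay below every Hdc-GFPlo library, and replicate 4 lay among them. The log2 fold change was -0.48 ± 0.35 (95% interval -1.24 to 0.27, adjusted p = 0.707). Leaving out the highest library, Hdc-GFPlo replicate 3, it was -0.21, and over all fits that left out 1 library it was -0.62 to -0.21. The seen spread of Hoxb4 was 24.1% of the mean in Hdc-GFPhi, where counting alone gives 15.7%, and 34.4% in Hdc-GFPlo, where counting alone gives 14.2%. The intervals of Hoxb4 and Hoxb5 are the widest among the members.

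Meis1, a TALE cofactor needed for the maintenance of stem cells and the most abundant member, was at 489, 546, 541 and 515 CPM in Hdc-GFPhi and at 463, 481, 445 and 505 CPM in Hdc-GFPlo. In Hdc-GFPhi, 3 of 4 libraries lay above every Hdc-GFPlo library. The means were 523 ± 26.1 CPM in Hdc-GFPhi against 473 ± 25.7 CPM in Hdc-GFPlo (± SD over 4 libraries each). The log2 fold change was 0.14 ± 0.09 (95% interval -0.04 to 0.33, adjusted p = 0.620), a fold of 0.971 to 1.26. With 8031 to 12159 counts per library, counting error was about 0.929% of the mean in Hdc-GFPhi and 1.05% in Hdc-GFPlo. The seen spread was 5.0% in Hdc-GFPhi and 5.44% in Hdc-GFPlo, larger than counting error.

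Pbx3, a partner of Hoxa9 and Meis1 in leukaemia, was at 11.2, 15.4, 13.1 and 10.8 CPM in Hdc-GFPhi and at 10.4, 12.3, 11.5 and 9.38 CPM in Hdc-GFPlo. In Hdc-GFPhi, replicates 2 and 3 lay above all Hdc-GFPlo libraries and replicates 1 and 4 among them. The means were 12.6 ± 2.09 CPM in Hdc-GFPhi against 10.9 ± 1.26 CPM in Hdc-GFPlo (log2 fold change 0.22 ± 0.18, 95% interval -0.17 to 0.60, adjusted p = 0.762).

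**Figure D2:**
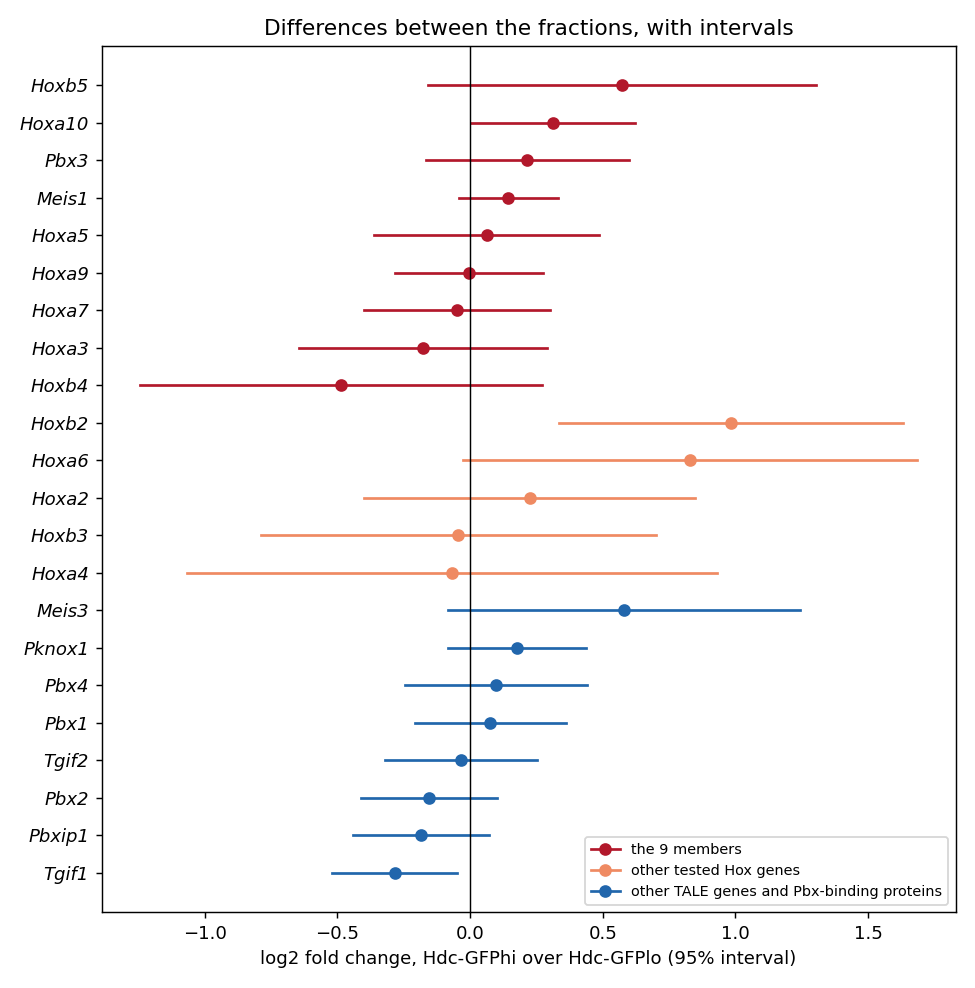
Log2 fold change of Hdc-GFPhi over Hdc-GFPlo (points) with its 95% interval (lines) for the 9 members, the 5 other tested Hox genes and the 8 other tested TALE genes and Pbx-binding proteins. Among the members, only the interval of Hoxa10 lies above 0, by 0.0030, and among the others those of Hoxb2 and Tgif1 leave out 0, with no gene past an adjusted p of 0.05.

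To compare levels between genes, CPM was divided by transcript length. Per kb, Meis1 led with 156 ± 7.81 CPM per kb in Hdc-GFPhi against 141 ± 7.69 CPM per kb in Hdc-GFPlo (SD, n = 4 each). Hoxa9 followed with 29.3 ± 4.94 in Hdc-GFPhi and 29.4 ± 2.53 in Hdc-GFPlo, above every other member in all libraries of its own fraction except Meis1. Hoxa7 (17.9 in Hdc-GFPhi, 18.5 in Hdc-GFPlo) and Hoxa10 (16.9 in Hdc-GFPhi, 13.6 in Hdc-GFPlo) overlapped in both fractions. Hoxa5 came next at 9.28 CPM per kb in Hdc-GFPhi and 8.88 in Hdc-GFPlo, clear of Hoxa10 above and of Pbx3 below. Pbx3 (4.89 in Hdc-GFPhi, 4.21 in Hdc-GFPlo) and Hoxa3 (2.81 in Hdc-GFPhi, 3.18 in Hdc-GFPlo) were apart in Hdc-GFPhi and overlapped in Hdc-GFPlo. The Hoxb members came last. In Hdc-GFPhi, Hoxb5 was at 0.917 to 1.10 CPM per kb and Hoxb4 at 0.487 to 0.903, so Hoxb5 was higher in every library. In Hdc-GFPlo, Hoxb5 was at 0.562 to 0.846 and Hoxb4 at 0.741 to 1.49, with overlap. The lengths are of 1 annotated transcript per gene, and with the union of all exons Meis1 was at 49.6 CPM per kb in Hdc-GFPhi and 44.9 in Hdc-GFPlo, still first and followed by Hoxa9, while Hoxa10 was above Hoxa7 in Hdc-GFPhi and Hoxb4 above Hoxb5 in both fractions.

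Across the clusters, Hox transcripts of LSK cells came almost wholly from Hoxa. The table holds 39 Hox genes, of which 12 had enough counts to be tested, 9 had some counts and 18 had none in any library. The 11 Hoxa genes held 93.6% to 96.4% of all Hox counts in the Hdc-GFPhi libraries and 95.3% to 96.3% in the Hdc-GFPlo libraries. The 10 Hoxb genes held 3.47% to 6.44% in Hdc-GFPhi and 3.61% to 4.60% in Hdc-GFPlo. The 9 Hoxc genes had 16 counts summed over Hdc-GFPhi and 11 summed over Hdc-GFPlo, and the 9 Hoxd genes had 0 in each fraction. A count of 0 over the 4 libraries of a fraction allows up to 0.0338 CPM in Hdc-GFPhi against 0.0389 CPM in Hdc-GFPlo, taking 3 counts as the limit and counting error only. In GENCODE M21, 88% of the Hoxd3 transcript and 45.1% of the Hoxd4 transcript overlap exons of other genes on their own strand. How reads in such overlaps were counted was not stated, so these limits hold for counted reads only. Hoxa11 and Hoxa13, at the posterior end of the Hoxa cluster, also had 0 counts in all 8 libraries, while Hoxa10 had 584 to 1073 counts per library.

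**Figure D3:**
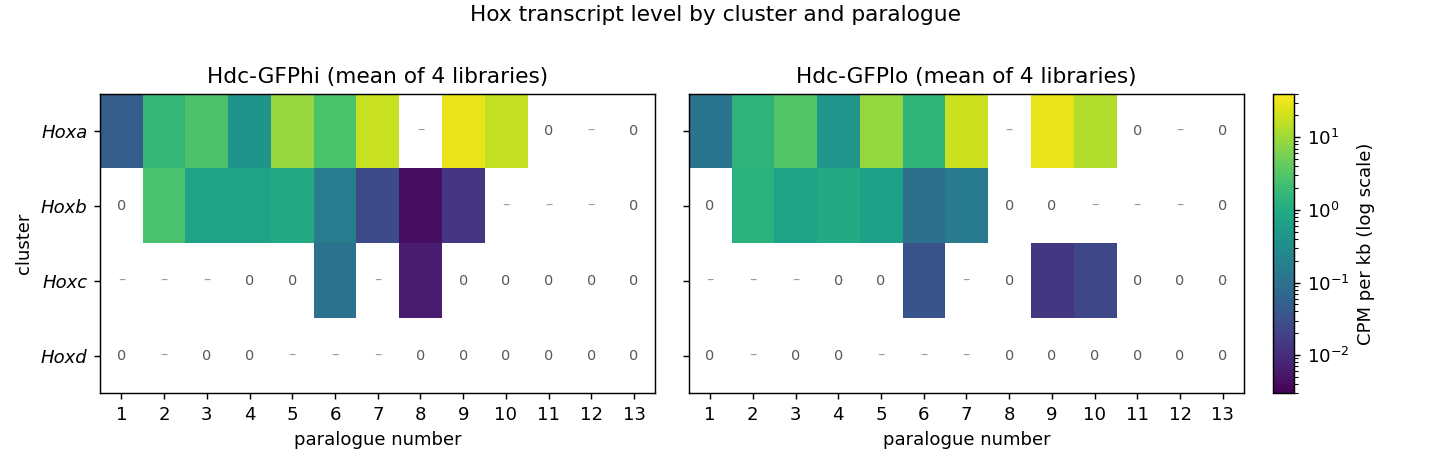
Mean level in CPM per kb (colour, log scale) of each Hox gene by cluster (rows) and paralogue number (columns), Hdc-GFPhi left and Hdc-GFPlo right, with 0 where a gene had no counts in that fraction and a dash where the table has no such gene. Levels are highest at Hoxa5, Hoxa7, Hoxa9 and Hoxa10 in both panels, with Hoxa9 at 29.3 CPM per kb in Hdc-GFPhi and 29.4 in Hdc-GFPlo, and the Hoxd row is at 0.

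The other tested Hox genes were low, and none of the 5 was called with edgeR, DESeq2 or voom (1 at an unadjusted p under 0.05). Hoxb2, an anterior gene of the Hoxb cluster, was at 4.01, 3.31, 3.47 and 6.15 CPM in Hdc-GFPhi and at 1.86, 1.84, 2.33 and 2.54 CPM in Hdc-GFPlo. These values did not overlap, a separation that 3.38% of all tested genes showed in that direction. The means were 4.24 ± 1.31 CPM in Hdc-GFPhi against 2.14 ± 0.346 CPM in Hdc-GFPlo, a log2 fold change of 0.98 ± 0.30 with an adjusted p of 0.190 (0.0621 to 0.450 over the alternative settings). In GENCODE M21, 58.5% of the Hoxb2 transcript and 70.5% of the Hoxb3 transcript overlap the antisense gene Hoxb3os. In these counts, its reads cannot be told apart from those of Hoxb2 and Hoxb3. Hoxa6 was at 3.88, 1.73, 1.96 and 1.92 CPM in Hdc-GFPhi and at 1.77, 1.19, 0.831 and 1.52 CPM in Hdc-GFPlo, with a log2 fold change of 0.83 (adjusted p = 0.486) that was 0.49 without Hdc-GFPhi replicate 1. Hoxa2, Hoxa4 and Hoxb3 had log2 fold changes of 0.22, -0.07 and -0.04.

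Of 10 other TALE genes and Pbx-binding proteins, 8 were tested and none was called by edgeR, DESeq2 or voom (1 at an unadjusted p under 0.05). Their median log2 fold change was 0.02. Tgif1, a TALE repressor that acts on TGF-beta and retinoid signalling, was lower in all Hdc-GFPhi libraries than in any Hdc-GFPlo library, at 63.3 ± 6.31 CPM in Hdc-GFPhi against 77.1 ± 2.97 CPM in Hdc-GFPlo (log2 fold change -0.28 ± 0.11, adjusted p = 0.329), a separation seen in that direction for 3.54% of all tested genes. Meis3, a relative of Meis1, was at 3.61 ± 0.553 CPM in Hdc-GFPhi against 2.42 ± 0.785 CPM in Hdc-GFPlo (log2 fold change 0.58, adjusted p = 0.548). Pbxip1, which binds Pbx proteins, and Pknox1, a further partner of Pbx, had log2 fold changes of -0.18 and 0.18. Meis2 had 3 counts in Hdc-GFPhi and 1 in Hdc-GFPlo over 4 libraries each, far below Meis1 and Meis3.

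Of 24 listed regulators that keep Hox genes active, some under older and newer names, 21 were in the table and 18 tested. None was called by edgeR (1 at an unadjusted p under 0.05), and the median log2 fold change was -0.01. Mllt3, a chromatin reader of the machinery that promotes elongation at Hox genes, was at 83.8, 130, 99.2 and 104 CPM in Hdc-GFPhi and at 59.9, 73.2, 78.4 and 70.8 CPM in Hdc-GFPlo (log2 fold change 0.56 ± 0.14, adjusted p = 0.0920). Its fractions did not overlap, as was so for 3.38% of all tested genes in that direction. Mllt3 was called by DESeq2 (adjusted p = 0.0137) and voom (0.0353), and over all alternatives the adjusted p was 0.0137 to 0.321. Mllt3 is also on the list of stem cell genes summed above. Mll1, the methyltransferase itself, was at 311 ± 10.5 CPM in Hdc-GFPhi against 282 ± 42.1 CPM in Hdc-GFPlo (log2 fold change 0.14, 95% interval -0.10 to 0.39). Its complex partners Dpy30 and Ash2l had log2 fold changes of -0.27 and -0.11.

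Of 24 tested genes linked by earlier work to Hoxa9 or Meis1 in blood cells, edgeR called 2 lower and 0 higher, against 0.707% and 0.241% of all tested genes. At an unadjusted p under 0.05 there were 10 of the 24, against 10.9% of all tested genes. DESeq2 called 5 of the list lower and 1 higher, beside 247 lower and 163 higher of 14770 genes in all. With voom, 4 of the list were lower and 1 higher, beside 179 lower and 99 higher of 13300 genes in all. The median log2 fold change of the list was -0.07. The list shares Il7r and Flt3 with the lymphoid markers and Hlf with the stem cell markers that differ between the fractions above, and the part of that make-up in these values was not tested. Il7r, which encodes a cytokine receptor of lymphoid progenitors, was at 4.87 ± 1.20 CPM in Hdc-GFPhi against 32.4 ± 10.8 CPM in Hdc-GFPlo (log2 fold change -2.73 ± 0.25, adjusted p = 3.73e-04). Mef2c, a transcription factor of lymphoid and myeloid progenitors, fell to 384 ± 41.8 CPM in Hdc-GFPhi, against 544 ± 21.1 CPM in Hdc-GFPlo (log2 fold change -0.50 ± 0.10, adjusted p = 0.0287), a call lost without Hdc-GFPhi replicates 1 or 4, without Hdc-GFPlo replicates 1, 2 or 4, and when Hdc-GFPlo replicate 3 and Hdc-GFPhi replicate 4 were both left out (log2 fold change -0.45 to -0.52 and adjusted p 0.0567 to 0.127 in these fits). Hlf, a stem cell transcription factor, was at 566 ± 46.2 CPM in Hdc-GFPhi against 417 ± 26.9 CPM in Hdc-GFPlo (log2 fold change 0.44 ± 0.09), with an adjusted p of 0.050003 just over the threshold and 0.00155 to 0.220 over the alternatives. Flt3, a cytokine receptor of multipotent and lymphoid progenitors, was at 876 ± 91.0 CPM in Hdc-GFPhi against 1236 ± 203 CPM in Hdc-GFPlo (log2 fold change -0.50 ± 0.12, adjusted p = 0.0965, and 0.0118 to 0.321 over the alternatives).

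**Figure D4:**
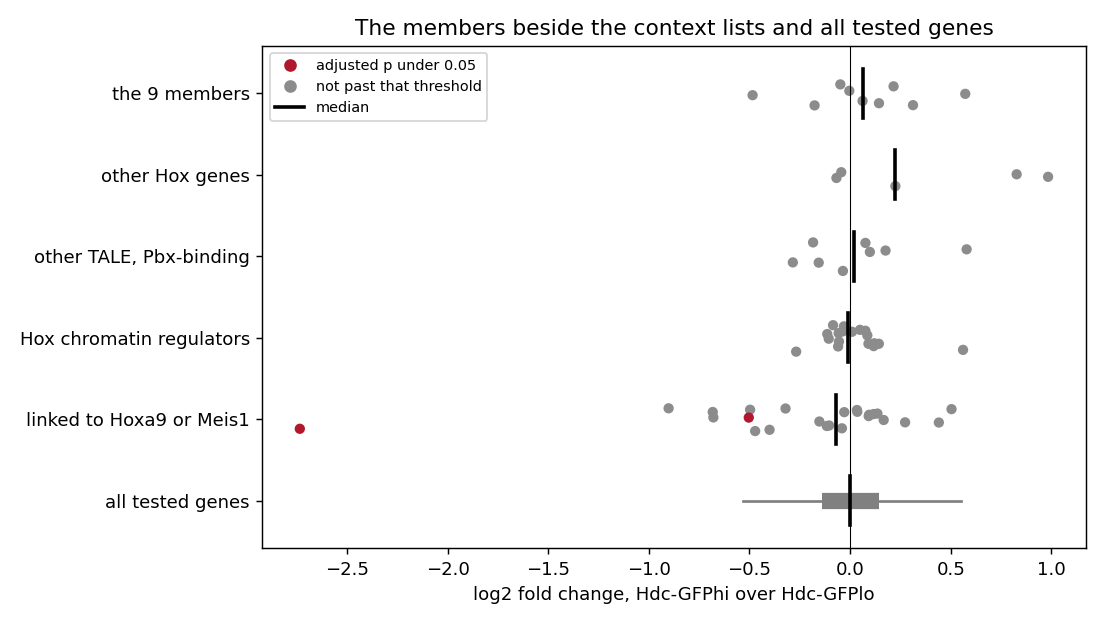
Log2 fold change of Hdc-GFPhi over Hdc-GFPlo for each tested gene of the members and the context lists (points, red where adjusted p is under 0.05) with the list median (black bar), and for all tested genes the median, the middle 50% (box) and the 5th to 95th percentiles (line, -0.53 to 0.55). Of the 9 members, only Hoxb5 at 0.57 lies past that line, and the red points are Il7r at -2.73 and Mef2c at -0.50.

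The genes whose profile over the 8 libraries was most like the members' mean profile were Vegfc, Hadh and Tex264. Likeness was the root mean square distance between standardised log2 CPM and the mean of the 9 standardised members, over 11506 genes with a mean count of at least 50. The distances were 0.595, 0.598 and 0.606, against 0.628 (Hoxa10) to 1.05 (Hoxb4) for the members themselves. These 3 genes were thus nearer to the mean profile than any member, as the closest of many candidates. The mean profile was highest in Hdc-GFPhi replicate 2 (0.542 SD) and lowest in Hdc-GFPlo replicate 4 (-0.635 SD), and Hdc-GFPhi replicate 3 (-0.252 SD) lay below Hdc-GFPlo replicate 3 (0.249 SD).

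**Figure D5:**
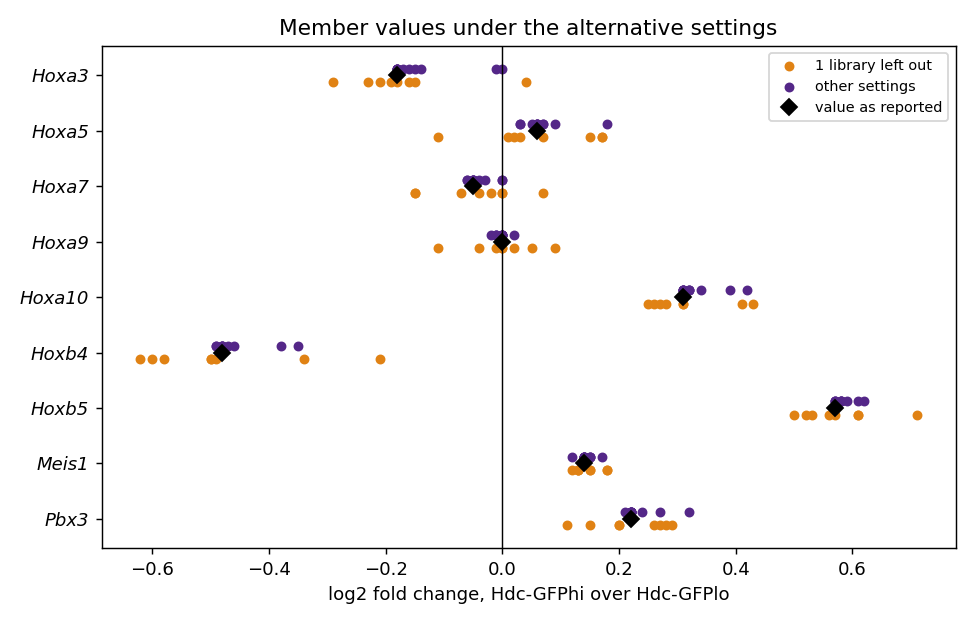
Log2 fold change of Hdc-GFPhi over Hdc-GFPlo for each member as reported (black diamond), in the 8 fits that left out 1 library (orange) and under the other settings (purple). Hoxa10, Hoxb5, Meis1 and Pbx3 stay above 0 and Hoxb4 below 0 at every setting run, while Hoxa3, Hoxa5, Hoxa7 and Hoxa9 cross 0 at 1 or more.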

How the data were processed

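RNA-seq of 8 libraries (4 Hdc-GFPhi, 4 Hdc-GFPlo) was taken from a single count table of gene symbols, deposited by the authors as raw whole-number counts without normalization. Per the labels' protocols, RNA of 2000 sorted cells was amplified with a SMARTer kit and made into Nextera XT libraries. The submitters' processing notes name mm9, HTSeq 0.6.1, TopHat2 2.04, Bowtie2 and bcl2fastq 1.8.4. Settings, annotation and strand option: not given in the sources used here. Amplified reads without molecular identifiers are not independent molecules.

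Titles gave each sample's fraction and replicate number. Since nothing states that replicates were separate animals, p-values reflect only the spread among these samples, and it may be technical. Hdc-GFPhi replicate 4 is labelled GFP+ in place of GFPhi in its cell type field but was analysed under its title. Every pair of same-fraction libraries differed by more than sampling noise (chi-square per degree of freedom at least 13.8).

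Genes kept by edgeR's filterByExpr (13300 of 23284) were scaled by TMM and tested with edgeR 4.0.16 quasi-likelihood (robust, no covariate, R 4.3.3), with Benjamini-Hochberg adjustment over all tested genes and a threshold of 0.05. A gene is called, higher or lower, when it passed. Folds are Hdc-GFPhi over Hdc-GFPlo with 95% intervals from that fit, in which the biological coefficient of variation was 19.9%. CPM are TMM-scaled, and log2 CPM used a prior count of 2. Alternatives used DESeq2 1.42.0, limma 3.58.1 voom, other scalings and filters, covariates and left-out libraries. Transcript lengths, exon overlaps and homeobox sequences came from GENCODE M21 (GRCm38) by gene symbol, with the homeobox placed from the conserved recognition helix. Sequences of the Hox members are not reported here.

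The members and the gene lists were chosen with earlier results of these data known, and no p-value is given over a list. Named genes are all members, other Hox genes with a mean count of at least 10, the 4 smallest p-values of each context list, and the 3 genes most like the members. Cd8a, Klrd1, Hba-a1, Ngp and S100a8 were chosen after their values were seen. So were Kit, Ly6a, Cd34, Ptprc, Hdc, Meis2, stromal genes and the rows in the closing section.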

Additional observations from a re-analysis of the deposited data

Results flagged for a closer look

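In 3 of 52 groups of 4 libraries (26 named genes in each fraction), 1 library stood far from the others by Dixon's test on log2 CPM, a number that chance alone gives at about 1 in 20 groups. Hoxa7 was at 4.87 in Hdc-GFPlo replicate 4, against 5.31 to 5.35 in the other Hdc-GFPlo libraries. Hoxa6 was at 1.99 in Hdc-GFPhi replicate 1, against 0.87 to 1.04 in the other Hdc-GFPhi libraries. Mll1 was at 8.35 in Hdc-GFPhi replicate 2, against 8.25 to 8.26 in the other Hdc-GFPhi libraries, a small gap in absolute terms.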

How the results depend on the processing

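Under 19 alternative settings 0 members were called in either direction, as were 0 of the other Hox and TALE genes. Of 169 member values, 160 kept their direction, and the 9 that turned were small. Hoxa9 was 0.00 with upper-quartile factors and 0.02 with no composition factor, and Hoxa7 was 0.00 with voom. With 1 library left out, Hoxa9 ranged from -0.11 to 0.09, Hoxa7 from -0.15 to 0.07, Hoxa5 from -0.11 to 0.17, Hoxa3 from -0.29 to 0.04, Hoxa4 from -0.24 to 0.14 and Hoxb3 from -0.21 to 0.14. Without both Hdc-GFPhi replicate 4 and Hdc-GFPlo replicate 3, the log2 fold changes were -0.00 (Hoxa3), 0.18 (Hoxa5), -0.00 (Hoxa7), -0.01 (Hoxa9) and 0.42 (Hoxa10). That fit also gave -0.35 (Hoxb4), 0.61 (Hoxb5), 0.14 (Meis1) and 0.32 (Pbx3), and 0.80 for Hoxb2. With at least 50 counts required in 4 libraries, Hoxb4 and Hoxb5 were not tested. Over all genes, 32 were called higher and 94 lower in Hdc-GFPhi, which became 163 and 247 with DESeq2, 99 and 179 with voom, and 84 and 191 with a covariate that sets replicates 1 and 2 apart from 3 and 4. Leaving out 1 library gave 8 to 41 higher and 44 to 105 lower. With the replicate number as a block, 84 genes were called higher and 140 lower. The deviations of same-numbered libraries correlated at 0.257, 0.347, 0.076 and 0.100, and not every library correlated best with its own number, so the numbers were not taken as pairs. Among Hox regulators, 1 gene (Mllt3) was called higher with DESeq2, with voom and with the replicate block. Among genes linked to Hoxa9 or Meis1, 1 (Hlf) was called higher with every other scaling or filter except DESeq2 size factors, with DESeq2, with voom, without robust estimation, with the block, with the covariate, and in 2 fits with 1 library left out (range over these fits 0 to 1). In that list, 5 were called lower with DESeq2, 4 with voom and 5 with the covariate, and 1 to 3 in the fits with 1 library left out. The cause of these moves was not tested. Hoxb4 and Hoxb5 had the fewest counts among the members, 21 to 69 per library, and the part of depth in their wide intervals was not tested.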

Other observations

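The table has a row for Mir196b, which in GENCODE M21 lies inside the span of the Hoxa9 gene. It had 49, 36, 30 and 47 counts in Hdc-GFPhi and 44, 25, 24 and 44 counts in Hdc-GFPlo, and these reads of long RNA libraries are not a measure of the mature miRNA. Mir10a, between Hoxb4 and Hoxb5, had at most 1 count in a Hdc-GFPhi library and at most 2 in a Hdc-GFPlo library.

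Within each library, the ratio of Hoxa10 to Hoxa9 counts was 0.414, 0.522, 0.449 and 0.463 in Hdc-GFPhi and 0.288, 0.366, 0.459 and 0.376 in Hdc-GFPlo, with overlap. The ratio of Hoxb5 to Hoxb4 counts was 1.39, 1.02, 1.12 and 0.750 in Hdc-GFPhi and 0.464, 0.844, 0.319 and 0.525 in Hdc-GFPlo, so 3 Hdc-GFPhi libraries lay above all Hdc-GFPlo libraries. These ratios were chosen after their values were seen and were not tested.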
